A study of Mus musculus with 3 samples.

Results

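Transcripts of 7 genes of the Ras, Raf and Erk cascade were measured in 5TGM1.BRE cells, an engraftable mouse myeloma line that is resistant to bortezomib, an inhibitor of the proteasome. The genes were chosen by symbol as paralogs at each tier of the cascade: the Ras genes Nras and Hras, the Raf genes Araf and Braf, the Mek genes Map2k1 and Map2k2, and the Erk gene Mapk3. They are 7 of 24467 genes in each library, and all 7 passed the filter on low counts. Other paralogs of the Ras, Raf and Erk tiers were not analysed here, so no sum below is the total of a tier.

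The study has 3 libraries of polyadenylated RNA in 1 group, with 62303493, 45705994 and 59402218 counts for replicates 1, 2 and 3. Its parent, 5TGM1, comes from a myeloma that arose spontaneously in C57Bl/KaLwRij mice and was passaged, and the labels give bone marrow as the tissue. Cultures grew in 20% serum with 10 nM bortezomib, and an interval of 72 h or more without drug preceded RNA extraction from 10000000 cells. All 3 libraries share these protocols, although selection in bortezomib is named in the cell type labels of replicates 2 and 3 only. No bortezomib-sensitive cells were analysed here, so levels are described within resistant cells only. No label names separate cultures for the replicates, and p-values thus measure only the spread between these libraries, which may be technical.

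In this cascade, growth factor or cytokine receptors load the small GTPase Ras with GTP at the plasma membrane. Ras-GTP recruits and activates Raf, a serine/threonine kinase, which phosphorylates the dual-specificity kinases MEK1 and MEK2, the products of Map2k1 and Map2k2. These in turn phosphorylate Erk, which acts on cytoplasmic and nuclear proteins, among them transcription factors of the ETS family. Activating mutations in RAS and RAF genes are common in human myeloma. Counts per gene carry no information on mutations or on phosphorylation, so neither was measured here.

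The labelled cell type was checked against its markers. Of 8 plasma cell genes, 7, among them Xbp1, Irf4, Prdm1 and Sdc1, were at 1 CPM (counts per 1000000 library counts) or more in all libraries. Tnfrsf17 did not reach that limit in all libraries. The list had summed levels of 4454 to 4569 CPM. Of 6 markers of earlier B cells, 2 reached that limit, Ms4a1 and Fcer2a, and the list summed to 4.35 to 9.60 CPM. None of 6 T and NK cell, 6 myeloid, 5 erythroid or 6 stromal and endothelial markers did. Their summed levels were at most 0.449, 0.370, 0.372 and 1.09 CPM, and the defining markers Cd3e, S100a8, S100a9 and Col1a2 had 0 counts. The libraries were not alike: replicate 3 stood apart. In chi-square tests over genes, the statistic per degree of freedom was 65.1 between replicates 3 and 1 and 44.4 between replicates 3 and 2, against 4.0 between the remaining pair.

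Because paralogs can share reads, their sequences were compared first. The 567 coding bases of Nras and of Hras aligned without gaps and were identical at 75.3% of positions, with a longest shared run of 23 bases. Araf and Braf were identical at 63.8% of 1810 aligned coding positions, with a longest shared run of 17 bases. Map2k1 and Map2k2 were identical at 78.0% of 1175 aligned coding positions and shared a run of 56 bases. The window of 60 coding bases around the longest shared run is shown for the Raf and the Mek pair, 5′ to 3′ from GENCODE transcripts (GRCm38), with bases that differ within the pair in capitals.
Araf: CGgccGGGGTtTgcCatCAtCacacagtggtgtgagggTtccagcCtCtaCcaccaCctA
Braf: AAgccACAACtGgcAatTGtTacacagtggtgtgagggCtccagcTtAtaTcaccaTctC
Map2k1: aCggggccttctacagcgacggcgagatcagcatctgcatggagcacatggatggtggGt
Map2k2: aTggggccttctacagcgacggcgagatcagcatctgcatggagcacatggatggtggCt

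The Araf and Braf windows differ at 18 bases, while the Map2k1 and Map2k2 windows differ at 2. Of all words of 50 bases in the coding transcript of each gene, Hras and Araf shared none with a transcript of any other gene. Map2k1 and Map2k2 shared 7 words with each other, or 0.293% and 0.297% of their words. Mapk3 shared 1 word with Gm15546, and Nras shared 38 of 4421 words with transcripts of 160 other genes. Braf shared 97 words, or 1.00%, with Ndufb2, a respiratory chain gene on the opposite strand whose exons overlap 146 exonic bases of Braf. Exons of Araf overlap 9 bases of Syn1 on the opposite strand. Reads in these overlaps cannot be assigned, because no source used here states the strand setting of the counting.

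All 7 cascade genes were expressed in every library, and Map2k1 was the highest of them by CPM and per kilobase of exon. Levels are given as CPM, and between genes as CPM per kilobase of union exon length, the summed length of all annotated exons of a gene. Mean CPM spanned 2.20-fold among the 7 genes and mean CPM per kilobase 8.04-fold. By CPM per kilobase the genes lay between percentiles 58.4 (Braf) and 90.0 (Map2k1) of 16127 genes with a count and a length, whose median was 2.45 CPM per kilobase.

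**Figure D1:**
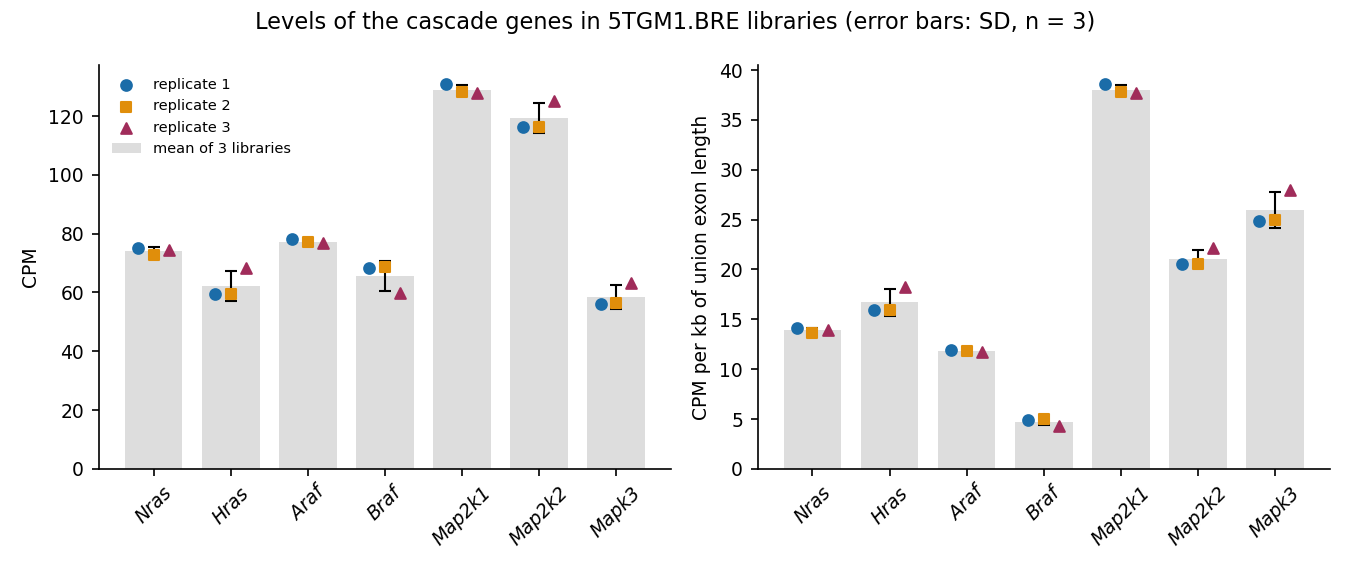
Levels of the 7 cascade genes in CPM (left) and in CPM per kilobase of union exon length (right). Bars are means of 3 libraries, error bars are SD, and symbols are the libraries; Map2k1 is highest in both panels, Braf is lowest per kilobase at 4.73, and the triangle of replicate 3 lies apart from the other libraries for Hras, Braf, Map2k2 and Mapk3.

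The Ras genes encode the GTPase switches at the top of the cascade. Nras (chromosome 3, 103058285 to 103067914, plus strand, GRCm38) was at 75.3, 72.6 and 74.4 CPM in replicates 1, 2 and 3, a mean of 74.1 ± 1.34 CPM (SD, n = 3). Hras (chromosome 7, 141189105 to 141194005, minus strand) was at 59.3, 59.4 and 68.3 CPM, a mean of 62.3 ± 5.15 CPM (SD, n = 3). Replicates 1 and 2 thus lay close together for Hras and replicate 3 above them, whereas the 3 values of Nras lay within 3 CPM of one another. Per kilobase, Nras was at 13.9 ± 0.251 and Hras at 16.7 ± 1.38 CPM per kilobase (SD, n = 3 for each).

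Nras was below Hras in all 3 libraries per kilobase of union exon, at a log2 ratio of -0.26 ± 0.11 (SD, n = 3). With counts divided by coding length it was above Hras, at 0.25. That choice divides the whole count of a gene by its coding length only. The coding sequences are of equal length, so this ratio equals the ratio of the counts. Which of the Ras genes is higher therefore depends on the length taken. With n = 3 an exact sign-flip permutation test (two-sided) cannot go below p = 0.25, and each of the 7 ratios per kilobase of union exon in the text was at that limit, before and after Benjamini-Hochberg adjustment over them.

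The Raf genes encode the kinases that Ras-GTP recruits. Araf (chromosome X, 20797814 to 20860519, plus strand) was at 78.1, 77.0 and 76.7 CPM in replicates 1, 2 and 3, a mean of 77.3 ± 0.746 CPM (SD, n = 3), the narrowest relative spread of the 7 genes at 0.965% of the mean. Braf (chromosome 6, 39603237 to 39725463, minus strand), whose product has the strongest basal kinase activity of the Raf proteins, was at 68.2, 68.8 and 59.7 CPM, a mean of 65.6 ± 5.08 CPM (SD, n = 3). Replicate 3 was the lowest library for Braf, with its single value below both of the other libraries.

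Araf exceeded Braf 2.50-fold per kilobase of union exon, at 11.8 ± 0.114 against 4.73 ± 0.366 CPM per kilobase (SD, n = 3 for each). The log2 ratio was 1.28, 1.25 and 1.44 in replicates 1, 2 and 3, a mean of 1.32 ± 0.11 (SD, n = 3). The direction held for every length tried, with an excess of 4.02-fold by the longest transcript, 1.57-fold by coding length and 1.18-fold without lengths. Braf has annotated exons of 13862 bases in all, against 6541 for Araf. Braf was the lowest of the 7 genes by union exon length, by the longest transcript and by coding length.

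The Mek genes encode the dual-specificity kinases that phosphorylate Erk. Map2k1 (chromosome 9, 64185770 to 64253631, minus strand) was at 130.8, 128.1 and 127.9 CPM in replicates 1, 2 and 3, a mean of 128.9 ± 1.64 CPM (SD, n = 3). Map2k2 (chromosome 10, 81105915 to 81133975, plus strand) was at 116.2, 116.4 and 125.2 CPM, a mean of 119.3 ± 5.14 CPM (SD, n = 3). Map2k1 was thus nearly level across the libraries, while replicate 3 was the highest for Map2k2, and the ranges of the Mek genes did not overlap.

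Map2k1 exceeded Map2k2 1.81-fold per kilobase of union exon, at 38.0 ± 0.483 against 21.1 ± 0.907 CPM per kilobase (SD, n = 3 for each). The log2 ratio was 0.91, 0.88 and 0.77 in replicates 1, 2 and 3, a mean of 0.85 ± 0.074 (SD, n = 3). The excess was 1.07-fold by the longest transcript, 1.10-fold by coding length and 1.08-fold without lengths, in the same direction in 3 of 3 libraries each time. The size of the difference thus rests on the 5663 bases of union exon of Map2k2, whose longest transcript has 2405 bases. In the order by CPM per kilobase, Map2k1 ranked 1607th and Map2k2 2760th among 16127 genes.

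Mapk3 encodes ERK1, the Erk kinase at the end of the cascade. Mapk3 (chromosome 7, 126759601 to 126765819, plus strand) was at 56.1, 56.4 and 63.2 CPM in replicates 1, 2 and 3, a mean of 58.6 ± 4.05 CPM (SD, n = 3), the lowest CPM of the 7 genes. It has the shortest union exon length, 2257 bases, and was second to Map2k1 per kilobase, at 25.9 ± 1.80 CPM per kilobase (SD, n = 3). As for Hras and Map2k2, replicates 1 and 2 were within 1 CPM of each other and replicate 3 lay above both.

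Per kilobase of union exon the order from high to low was Map2k1, Mapk3, Map2k2, Hras, Nras, Araf and Braf, and no neighbours in it had overlapping ranges. With the longest transcript the order was Map2k1, Map2k2, Mapk3, Araf, Hras, Nras and Braf, again without overlap between neighbours. By coding length it was Nras, Hras, Map2k1, Map2k2, Mapk3, Araf and Braf, and there Hras and Map2k1 overlapped, at 109.9 ± 9.08 and 109.4 ± 1.39 CPM per kilobase (SD, n = 3 for each). The place of the Ras genes thus moved from the lower to the upper end with the length, since their coding sequences are short beside their transcripts, while Braf stayed last.

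The summed level per kilobase of the listed members was 59.1 ± 0.737 for the Mek genes, 30.6 ± 1.45 for the Ras genes and 16.5 ± 0.447 for the Raf genes (SD, n = 3 for each). The Mek sum exceeded the Raf sum 3.57-fold (log2 1.84 ± 0.054, SD, n = 3) and the Ras sum 1.93-fold (log2 0.95 ± 0.051, SD, n = 3). The Raf sum was below the Ras sum at a log2 ratio of -0.89 ± 0.11, and Mapk3 was below the Mek sum at -1.19 ± 0.084 (SD, n = 3 for each). The Mek excess over Raf and the place of Mapk3 below Mek kept their direction for every length tried, whereas the Mek to Ras ratio was -0.21 by coding length and the Raf to Ras ratio 0.07 without lengths. The sums leave out the paralogs that were not analysed here.

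**Figure D2:**
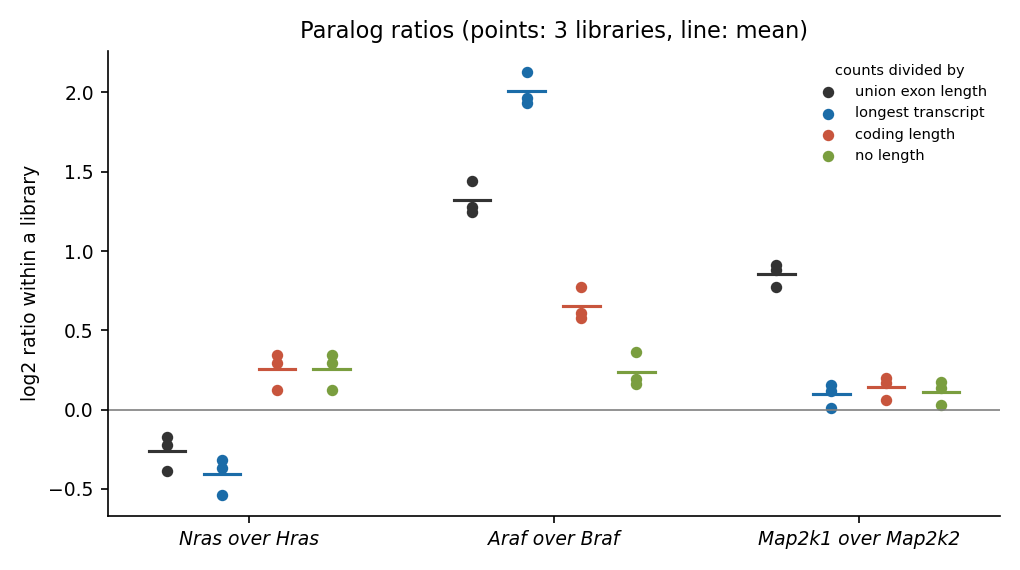
Log2 ratio of the paralogs of each tier within each library, with counts divided by union exon length, by the longest transcript, by coding length or by no length. Points are libraries and lines are means of 3; Araf lies above Braf and Map2k1 above Map2k2 for all 4 choices, while the ratio of Nras to Hras lies below 0 for the first 2 and above 0 for the others.

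The 3 libraries were next compared with each other, each against the other 2, by edgeR's quasi-likelihood test across 11308 genes with Benjamini-Hochberg adjustment. Replicate 3 had 3 cascade genes higher, Hras, Map2k2 and Mapk3, and 1 lower, Braf, while Nras, Araf and Map2k1 did not pass the test. Of all genes tested, 24.8% were higher and 26.8% lower in replicate 3, or 51.6% in either direction, so 4 of 7 is near the share over all genes. The median log2 fold change was 0.04 over the 7 genes and 0.01 over all genes tested. For replicates 1 and 2, the other 2 libraries include replicate 3, which stood apart, so its offset counted as spread. The SE of Hras was 0.19 and 0.21 in these tests, against 0.042 in that of replicate 3. They could thus hardly call a gene and do not show that replicates 1 and 2 are alike. In replicate 1 and in replicate 2 none of the 7 genes was called, none had an unadjusted p under 0.05, and DESeq2 called none (0.00615% of all genes in each). Of all genes tested, 0.0265% were called higher and 0.0531% lower in replicate 1, or 0.0796% in either direction. In replicate 2 the shares were 0.0265% each, or 0.0531% in either direction. With the length trend removed as described below, they were 0.0265% higher and 0.0442% lower, or 0.0707%, in replicate 1, and 0.0265% each, or 0.0531%, in replicate 2.

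Hras was at 68.3 CPM in replicate 3, against a mean of 59.3 CPM in the other libraries, a log2 fold change of 0.23 (SE 0.042, adjusted p = 2.25e-07). Mapk3 was at 63.2 CPM in replicate 3, against 56.2 CPM, a log2 fold change of 0.20 (SE 0.043, adjusted p = 1.26e-05). Map2k2 was at 125.2 CPM in replicate 3, against 116.3 CPM, a log2 fold change of 0.14 (SE 0.040, adjusted p = 0.0018). Braf was at 59.7 CPM in replicate 3, against 68.5 CPM, a log2 fold change of -0.17 (SE 0.043, adjusted p = 0.00033). With the length trend removed as described below, Nras, Araf and Braf were at 0.10, 0.13 and 0.08, so the pairs did not split alike in every setting. A difference between partners was not tested across libraries. In the present setting Hras, Braf and Map2k2 were called, as was Mapk3, and the partners Nras, Araf and Map2k1 were not. By DESeq2, which called 32.8% of 9208 genes with an adjusted p in replicate 3, 13.4% higher and 19.3% lower, 1 of these calls remained, Hras, at a log2 fold change of 0.22 (adjusted p = 0.018). Mapk3, Braf and Map2k2 were at 0.19, -0.18 and 0.13 by DESeq2, close to their values by edgeR, with adjusted p of 0.055, 0.066 and 0.10.

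Nras was at 74.4 CPM in replicate 3, against 73.9 CPM in the other libraries, with a log2 fold change of 0.04 (SE 0.041, adjusted p = 0.46). For Araf and Map2k1 the log2 fold changes were 0.01 each (adjusted p = 0.80 and 0.83). The CPM of Araf and Map2k1 in replicate 3 lay below the mean of the other libraries, at 76.7 against 77.6 and 127.9 against 129.5 CPM, so the sign of their differences depends on the scaling. With the values of replicates 1 and 2 alone, the means of Hras, Braf, Map2k2 and Mapk3 were 59.3, 68.5, 116.3 and 56.2 CPM.

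**Figure D3:**
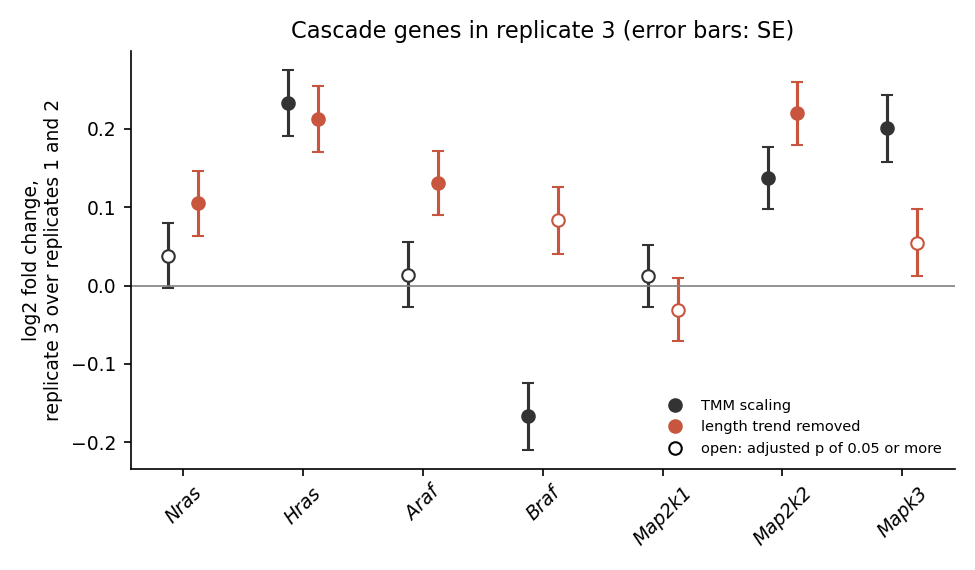
Log2 fold change of replicate 3 over replicates 1 and 2 for the 7 cascade genes, with SE, after TMM scaling (black) and with the trend on gene length removed (red). Filled points have an adjusted p under 0.05 in edgeR's quasi-likelihood test; Hras and Map2k2 are filled in both, and Braf is at -0.17 in the first and 0.08 in the second.

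The difference of replicate 3 moved with gene length across the transcriptome. Its log2 fold changes had a Spearman correlation of -0.59 with union exon length and 0.22 with GC content across 11240 genes, which share the same 3 libraries. Of the called members, Mapk3 with 2257, Hras with 3733 and Map2k2 with 5663 bases of exon were higher, and Braf with 13862 bases was lower. Not every member followed its length: Map2k1, with 3391 bases, is shorter than Hras and Map2k2, and its log2 fold change was 0.01, while Nras with 5331 and Araf with 6541 bases were at 0.04 and 0.01. Map2k2, Mapk3 and Hras also had the highest GC content of the 7 genes, at 60.4%, 57.6% and 55.2% of the longest transcript, against 42.6% for Braf and for Nras.

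With the trend on length removed, 34.1% of all genes were called in replicate 3, 17.5% higher and 16.6% lower. Hras and Map2k2 were still called higher, at log2 fold changes of 0.21 (adjusted p = 6.1e-06) and 0.22 (adjusted p = 5.9e-07). Nras and Araf were then higher too, at 0.10 (adjusted p = 0.036) and 0.13 (adjusted p = 0.0065). Braf had a log2 fold change of 0.08 (adjusted p = 0.12) and Mapk3 one of 0.05 (adjusted p = 0.35), so neither call was kept. With a trend on GC content removed instead, 49.4% of all genes were called, 24.3% higher and 25.1% lower. Map2k2 was then at 0.03 (adjusted p = 0.52) and no longer called, and Nras was called higher at 0.10 (adjusted p = 0.030). Hras and Mapk3 stayed higher, at 0.18 and 0.13 (adjusted p = 5.72e-05 and 0.0066), and Braf stayed lower at -0.10 (adjusted p = 0.034), a smaller difference than the -0.17 before. With both trends removed, 33.9% of all genes were called, 17.5% higher and 16.4% lower, and of the members Nras, Hras, Araf and Map2k2 were higher and none was lower. Of the 4 calls, that of Hras was made under each of these settings and by DESeq2.

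**Figure D4:**
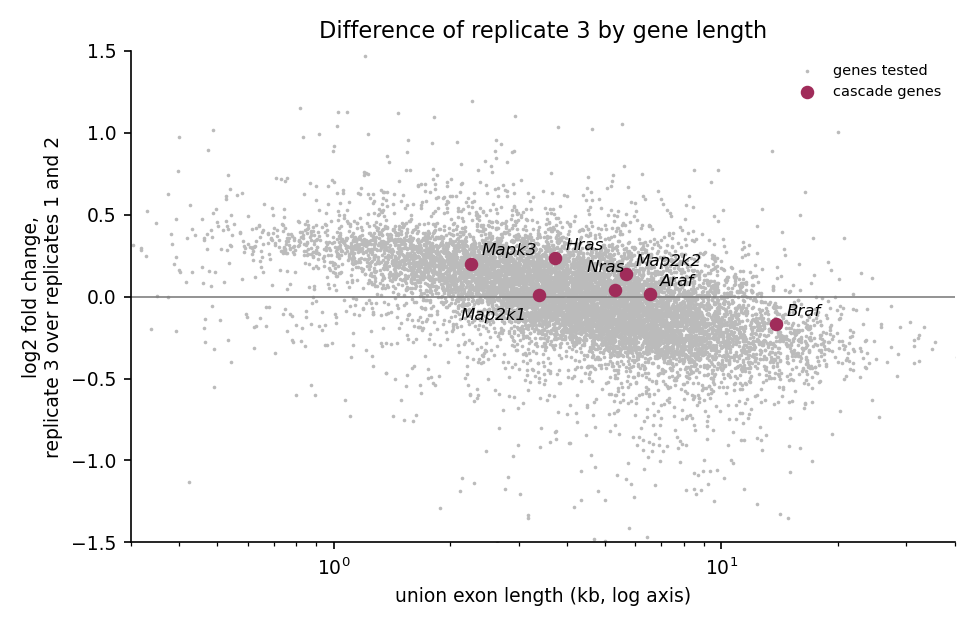
Log2 fold change of replicate 3 over replicates 1 and 2 against union exon length for the genes tested (grey) and the 7 cascade genes (coloured), on a log length axis; 134 of 11240 genes lie outside the axes. The grey cloud slopes down with length (Spearman -0.59), with Mapk3 at the short and Braf at the long end of the cascade genes.

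For each member the gene with the nearest log2 CPM over the 3 libraries was looked up among the genes tested. The root mean square differences were 0.0050 to 0.016 for the 7 members. Of the genes called in replicate 3, the nearest were Blvra for Hras, Mau2 for Braf, Tmem59 for Map2k2 and Nudt2 for Mapk3. Of those not called, they were Tmem263 for Nras and Grb2 for Map2k1. With 3 libraries such closeness describes the level and the place of replicate 3 only.

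The rest of the pathway was described from 8 lists of 101 genes, of which 78 were at 1 CPM or more in all libraries, as all 7 cascade genes were. Of all 24467 genes, 10016 reached that level. In replicate 3, 16 of 82 listed genes tested were higher and 33 lower, or 59.8%, against 51.6% of all genes. Their median log2 fold change was -0.10, against 0.01 over all genes, and -0.01 against 0.01 with the length trend removed. With the length trend removed, 8 were higher and 21 lower, or 35.4%, against 34.1% of all genes. In replicates 1 and 2 none was called by edgeR or DESeq2, in tests that could hardly call a gene, as described above.

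Genes that turn Ras on were uneven. Of 14 exchange factors and adaptors, 8 passed 1 CPM. Per kilobase the highest were Grb2, the adaptor that brings the exchange factor Sos to receptors, at 44.5 ± 0.645, Ptpn11, which encodes the phosphatase SHP2, at 14.8 ± 2.12, and Shc1, another adaptor, at 9.38 ± 0.827 CPM per kilobase (SD, n = 3 for each). The lymphoid exchange factors Rasgrp1 and Rasgrp3 had 0, 1 and 0 and 9, 15 and 8 counts in replicates 1, 2 and 3, and Rasgrf1 had 0 counts, which allows up to 0.0179 CPM over the 3 libraries. Over the 10 tested, the median log2 fold change in replicate 3 was -0.24, or -0.12 with the length trend removed.

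Genes that turn Ras off were broadly expressed, 13 of 14 at 1 CPM or more. Spred1, a membrane protein that recruits neurofibromin to Ras, was at 19.1 ± 2.21, the Ras GTPase activating gene Rasal3 at 15.4 ± 0.587 and Rasa1, which encodes p120 RasGAP, at 11.7 ± 1.24 CPM per kilobase (SD, n = 3 for each). The median log2 fold change of the 14 in replicate 3 was -0.21, or -0.10 with the length trend removed. All 7 genes of Ras lipid modification and trafficking passed 1 CPM. Fnta, a subunit of the farnesyltransferase that anchors Ras to membranes, led at 35.3 ± 1.26, followed by Pde6d, a chaperone of prenylated Ras, at 18.4 ± 1.71 and Icmt, which methylates the prenylated end, at 9.35 ± 0.459 CPM per kilobase (SD, n = 3 for each). For these 7, the median log2 fold change in replicate 3 was 0.08, or 0.04 with the length trend removed.

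Of 11 scaffolds and regulators of Raf and Mek, 8 passed 1 CPM. Pebp1, which encodes the Raf kinase inhibitor protein, was at 68.4 ± 6.46, Cdc37, a cochaperone that loads kinases on Hsp90, at 47.3 ± 2.54 and Lamtor3, a scaffold known to bind MEK1, at 27.4 ± 2.06 CPM per kilobase (SD, n = 3 for each). Per kilobase of union exon, Pebp1 and Cdc37 were above all 7 cascade genes, and Lamtor3 was above each of them but Map2k1. In CPM, Cdc37 at 387.2 was still above all of them. Pebp1 at 120.9 CPM was below Map2k1 at 128.9, and Lamtor3 at 113.8 CPM was below Map2k1 and Map2k2, the latter at 119.3. Other lengths were tried for the cascade genes only. Ksr1, a scaffold of Raf and Mek, was at 2.66 ± 0.675 CPM, or 0.375 ± 0.0950 CPM per kilobase (SD, n = 3), and Cnksr3 had 0 counts. The median log2 fold change of the 8 tested in replicate 3 was 0.02, or 0.09 with the length trend removed.

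Downstream of Erk, all 13 effector kinases and ETS or SRF factors passed 1 CPM. Ets2, an ETS factor, was at 49.6 ± 4.15, and Mknk1 and Mknk2, which encode kinases of the translation factor eIF4E, at 32.0 ± 1.28 and 22.3 ± 1.25 CPM per kilobase (SD, n = 3 for each). Their median log2 fold change in replicate 3 over all 13 was -0.14, or -0.08 with the length trend removed. The genes that Erk signalling is known to induce were split. Of 17, 10 passed 1 CPM, led by Ier2 at 68.8 ± 8.63, Phlda1 at 39.0 ± 2.79 and Junb at 21.2 ± 1.14 CPM per kilobase (SD, n = 3 for each). Fosl1, Egr3 and Dusp4 had 0 counts, and Egr1, a widely used early response gene, had 2, 4 and 6 counts. Dusp6, the cytoplasmic Erk phosphatase, was at 12.5 ± 0.148 and Etv5, an ETS factor, at 10.2 ± 0.876 CPM per kilobase (SD, n = 3 for each). Both were chosen after their values were seen, as were Rasgrp1, Rasgrp3, Ksr1 and Egr1. Over the 10 tested of this list, the median log2 fold change in replicate 3 was 0.08, or 0.02 with the length trend removed.

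**Figure D5:**
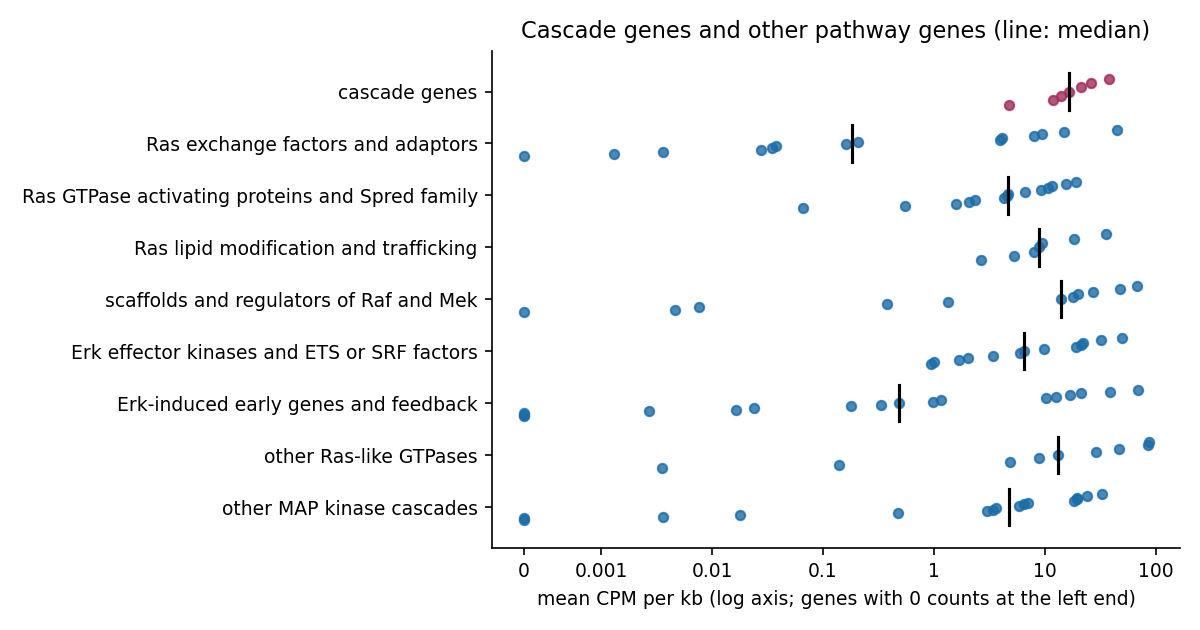
Mean CPM per kilobase of union exon over 3 libraries for the 7 cascade genes (top row) and for the genes of 8 pathway lists, on a log axis with genes at 0 counts at the left end; lines are medians. The cascade genes span 4.73 to 38.0, whereas the lists of exchange factors, scaffolds, early genes and other MAP kinases each reach from 0 to above 30.

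Related GTPases and kinases outside the cascade were set beside it on the same scale. Of 9 other Ras-like GTPases, 7 passed 1 CPM. Rap1b, Rap1a and Rala were at 86.1 ± 0.449, 85.6 ± 4.38 and 46.4 ± 2.48 CPM per kilobase (SD, n = 3 for each), each above the 16.7 of Hras and the 13.9 of Nras. They were also above both in CPM, at 248.4, 223.1 and 134.5 against 62.3 for Hras and 74.1 for Nras. The median log2 fold change of the 8 GTPases tested in replicate 3 was 0.16, or 0.06 with the length trend removed. Of 16 genes of other MAP kinase cascades, 12 passed 1 CPM. Map2k3, which activates p38, was at 32.5 ± 1.45 CPM per kilobase of union exon (SD, n = 3), below Map2k1 and above Map2k2. The place above Map2k2 depends on the length: in CPM, Map2k3 at 107.7 was below Map2k2 at 119.3. Mapk6, an atypical MAP kinase, and Mapk14, the p38 alpha gene, were at 23.8 ± 2.93 and 19.6 ± 1.84 CPM per kilobase (SD, n = 3 for each). Mapk4 and Mapk13 had 0 counts. For the 12 tested, the median log2 fold change in replicate 3 was -0.18, or -0.07 with the length trend removed.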

How the data were processed

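Per the submitters' processing notes, reads were handled with bcl2fastq, cutadapt 4.2 and STAR on the mouse genome mm10. The authors deposited raw counts per gene symbol, 1 table per library with no header. The counting program, annotation and strand setting: not given in the sources used here. CPM is counts divided by the library total, times 1000000. GENCODE M21, on GRCm38 (mm10), gave positions, GC content and, for 98.8% of 24467 symbols, lengths. The upper limit for a gene at 0 was taken as 3 counts, which is 0.0482, 0.0656 and 0.0505 CPM in replicates 1, 2 and 3 and covers counting error only.

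Each library was set against the other 2 with edgeR 4.0.16 (R 4.3.3; TMM factors 1.008, 1.006 and 0.986, filterByExpr, quasi-likelihood test with 1 residual degree of freedom, Benjamini-Hochberg threshold 0.05). An SE is the fold change divided by the square root of F. For the 7 members it did not track how far the gene itself differed between replicates 1 and 2. In the test of replicate 3 the SE was 0.042 for Hras and 0.041 for Nras. Their log2 ratios of replicate 2 to replicate 1, in CPM without TMM scaling, were 0.0018 and -0.051. The SE and adjusted p of a member thus do not rest on its own spread alone. P-values hold for these libraries only. Other settings tried were DESeq2 1.42.0, a loess trend on length removed (span 0.3), RLE or no scaling, omission of the filter, other lengths and detection limits, and omission of single replicates. Removal of GC trends was chosen after seeing the data.

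Named pathway genes are the 3 highest per kilobase of each list and up to 3 at 0 counts; Rasgrp1, Rasgrp3, Ksr1, Egr1, Dusp6, Etv5, Spred2 and Shoc2 were added after their values were seen. The nearest gene of Araf, 1 erythroid marker and the window of the Ras pair are not reported here. The members and lists were chosen with earlier results of these data known. Python 3.11.15, pandas 2.3.3 and Biopython 1.88 (global alignment) were used for the rest.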

Additional observations from a re-analysis of the deposited data

How the results depend on the processing

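No paired analysis was possible because the study has 1 group. Members higher in replicate 3 numbered 3, and 1 by DESeq2; members lower numbered 1, and 0 by DESeq2, with the length trend removed and with the length and GC trends removed. DESeq2 called 13.4% of 9208 genes higher and 19.3% lower in replicate 3, against 24.8% and 26.8% of 11308 by edgeR. The log2 fold change of Braf in replicate 3 was 0.083 with the length trend removed and 0.087 with both trends removed. That of Araf was -0.017 without scaling, and that of Map2k1 was -0.018 without scaling, -0.031 with the length trend removed and -0.043 with both trends removed, none of them called. With 1 of the other libraries left out, replicate 3 differed by -0.016 to 0.035 for Nras, -0.026 to -0.0059 for Araf and -0.033 to -0.0028 for Map2k1. These are log2 ratios of CPM without TMM scaling, so their signs cannot be set against the TMM-scaled fold changes.

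With the longest transcript, with coding length and without lengths, the log2 ratios were -0.41, 0.25 and 0.25 for Nras to Hras, 2.01, 0.65 and 0.24 for Araf to Braf, and 0.10, 0.14 and 0.11 for Map2k1 to Map2k2. In the same order they were -0.19, -1.78 and 0.067 for Raf to Ras, 1.60, 1.58 and 0.80 for Mek to Raf, 1.41, -0.21 and 0.86 for Mek to Ras, and -1.66, -2.02 and -2.09 for Mapk3 to Mek. With a replicate left out, the log2 ratio of Nras to Hras was between -0.31 and -0.20. Pathway genes higher in replicate 3 numbered 8 with the length trend removed, 7 by DESeq2 and 6 with both trends removed, against 16. In the same order, 17.5%, 13.4% and 17.5% of all genes tested were higher, against 24.8%, so that share fell too. Pathway genes lower numbered 21 with the length trend removed and 19 by DESeq2, against 33. Of all genes tested, 16.6% and 19.3% were lower, against 26.8%. With both trends removed, 25 pathway genes and 16.4% of all genes were lower. With the GC trend removed, 15 pathway genes were higher and 39 lower, beside 24.3% and 25.1% of all genes. All 7 members passed detection limits of 0.5, 1 and 5 CPM, and 79, 78 and 67 of 101 pathway genes did. Of all 24467 genes, 10526, 10016 and 8811 did.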

Other observations

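Among the pathway genes, Spred2, an inhibitor of Ras signalling related to Spred1, was lower in replicate 3 by nearly the same amount with and without the length trend. It had 778 counts, or 13.1 CPM, in replicate 3, against 1654 and 1170 counts, or 26.5 and 25.6 CPM, in replicates 1 and 2. The log2 fold change was -0.96 (SE 0.074, adjusted p = 2.4e-36 by edgeR's quasi-likelihood test), and -0.93 with the length trend removed. By DESeq2 it was -0.97 (adjusted p = 3.4e-12). Spred1 was lower in replicate 3 at -0.27, and at -0.14 with the length trend removed.

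Shoc2, a scaffold known to help Ras activate Raf, was also lower in replicate 3 under every setting tried, at log2 fold changes of -0.36, -0.29 with the length trend removed and -0.37 by DESeq2 (adjusted p = 1.6e-16, 3.4e-10 and 1.8e-05). Both genes were chosen after their values were seen. Other listed genes, among them Ptpn11, were also lower in replicate 3 with and without the length trend, so that is not particular to Spred2 and Shoc2. With 1 library on one side, these values describe that library and not a condition.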
